A study of Homo sapiens with 18 samples.

Results

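The 33 genes described here encode proteins of the G2 phase and of mitosis, the part of the cell cycle in which the duplicated chromosomes are attached to the spindle and shared between daughter cells. They were taken as a list of symbols with no threshold on a measured value, and all 33 were found in each of the 3 tables, of 25721 gene symbols listed in at least 1 table. The 18 RNA-seq libraries, 3 in each of 6 groups, came from 2 human triple-negative breast cancer (TNBC) lines, and a short hairpin RNA (shRNA) reduced PBRM1, IRF1 or MUC1. BT-549 cells, which are BRCA1 wild-type, stably carried PBRM1shRNA or IRF1shRNA, and each silenced line was compared with its own BT-549 control group. MDA-MB-436 cells, which are BRCA1 mutant, carried a tetracycline-inducible hairpin (tet-MUC1shRNA) and were grown with 500 ng/ml doxycycline (DOX) or with 0.1% DMSO as vehicle. Transduced cells were selected with puromycin, and the labels name 1 hairpin per target. The control columns of the IRF1 experiment name a control shRNA. Those of the PBRM1 experiment name no hairpin, so the labels do not show whether these controls were transduced and selected. Cells were cultured in triplicate, so the p-values measure the spread among cultures of 1 line and not among separate lines or hairpins. DOX was given to no cells with a control hairpin among the samples analysed here, so effects of DOX itself and of MUC1 silencing cannot be told apart.

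Entry into mitosis is driven by CDK1 bound to cyclin A or B, with the kinases of the Aurora and Polo families, and exit follows when the anaphase-promoting complex (APC/C) marks cyclin B and securin for destruction. Transcripts of these proteins rise together in late S and G2 phase and are low in resting cells, which is why several of the 33, among them MKI67, TOP2A and the cyclin genes, serve as proliferation markers in breast cancer. Their promoters are held down in resting cells by the DREAM complex, which binds the cell cycle homology element TTTGAA, and are activated later in the cycle by MuvB with MYBL2 and FOXM1. Many also hold CCAAT, the element bound by NF-Y.

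A promoter entry in RefSeq (GRCh38.p14) was found for 27 of the 33 genes. Within the 250 bases before the start, read on both strands with overlapping matches counted, 16 of the 27 genes (59.3%) held TTTGAA or its reverse complement TTCAAA, compared with 16.1% of 27305 genes with an entry. CCAAT or its reverse complement ATTGG was found in 22 of 27 (81.5%), compared with 37.0% of all genes, and both elements in 15 of 27, compared with 6.86%. Among DNA replication genes, which act earlier in the cycle, TTTGAA was present in 2 of 41 promoters, and among 71 other G2 and mitosis genes in 28. CCAAT was common in these lists too, in 25 of the 41 (61.0%) and 51 of the 71 (71.8%). Both elements were in 1 of the 41 and 23 of the 71. The core of the element that IRF proteins bind, GAAA followed after any 2 bases by a second GAAA, on either strand, was in 0 of the 27 windows and in 3.71% of all promoters. These are matches of letters in a window and were not tested as binding sites. The 150 bases before the start are shown for 7 genes that are described with values for each library below, in the orientation of the gene, 5′ to 3′, with TTTGAA or TTCAAA and CCAAT or ATTGG in capitals. They show how the elements are spaced ahead of the start in genes of different function.
DLGAP5 (chr14:55191586-55191735, minus strand): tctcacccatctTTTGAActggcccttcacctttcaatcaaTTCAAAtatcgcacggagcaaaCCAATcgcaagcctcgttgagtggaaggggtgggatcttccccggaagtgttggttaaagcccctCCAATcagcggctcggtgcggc
CCNB2 (chr15:59104996-59105145, plus strand): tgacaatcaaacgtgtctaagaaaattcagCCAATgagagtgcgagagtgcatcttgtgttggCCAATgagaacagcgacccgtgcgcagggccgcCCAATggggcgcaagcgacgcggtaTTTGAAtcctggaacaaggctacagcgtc
ASPM (chr1:197146670-197146819, minus strand): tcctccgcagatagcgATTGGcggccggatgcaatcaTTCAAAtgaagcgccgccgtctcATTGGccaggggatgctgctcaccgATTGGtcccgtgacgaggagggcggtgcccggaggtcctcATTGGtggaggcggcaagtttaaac
KIF23 (chr15:69414199-69414348, plus strand): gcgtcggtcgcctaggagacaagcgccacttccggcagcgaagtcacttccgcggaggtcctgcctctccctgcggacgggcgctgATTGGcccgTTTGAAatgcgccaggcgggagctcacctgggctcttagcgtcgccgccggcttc
PLK1 (chr16:23678739-23678888, plus strand): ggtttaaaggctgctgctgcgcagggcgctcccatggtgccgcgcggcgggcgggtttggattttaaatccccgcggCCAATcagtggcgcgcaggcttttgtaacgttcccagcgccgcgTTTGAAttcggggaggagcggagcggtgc
CENPA (chr2:26785906-26786055, plus strand): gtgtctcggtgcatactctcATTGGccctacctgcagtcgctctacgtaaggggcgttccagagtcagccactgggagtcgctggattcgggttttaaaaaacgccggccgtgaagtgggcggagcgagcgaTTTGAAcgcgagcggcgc
PRC1 (chr15:90994536-90994685, minus strand): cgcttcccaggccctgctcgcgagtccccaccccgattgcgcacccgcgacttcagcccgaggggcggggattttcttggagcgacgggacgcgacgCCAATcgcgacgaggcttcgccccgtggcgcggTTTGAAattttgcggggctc
In CCNB2 and PLK1 the nearest TTTGAA began 29 bases before the start, in PRC1 20 bases, in CENPA 18 bases and in KIF23 55 bases. In DLGAP5 and ASPM the nearest match lay farther away, at 109 and 113 bases. In the bases shown, CCNB2 had 3 and ASPM had 4 elements CCAAT or ATTGG.

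The silenced gene fell in each experiment. PBRM1, a subunit of the PBAF chromatin remodeler, was at 12.3, 10.7 and 12.6 TPM (a relative transcript level corrected for transcript length) in the control libraries a, b and c and at 3.22, 2.69 and 2.95 TPM in the PBRM1shRNA libraries 1, 2 and 3. IRF1, a transcription factor of the interferon response, was at 5.22, 4.49 and 4.54 TPM in control and 1.03, 1.30 and 1.18 TPM in IRF1shRNA cells. MUC1, which encodes a transmembrane mucin, was at 6.37, 4.97 and 5.55 TPM with vehicle and 3.65, 2.71 and 2.73 TPM with DOX. Silenced and control libraries did not overlap for any of the 3 targets, and the fall was smallest for MUC1 (log2 fold -0.72 ± 0.13 (SE), limma adjusted p = 0.00148). As TNBC lines of mesenchymal type, both lines had high VIM, at 349 ± 23.5 TPM (SD, n = 3) in BT-549 controls for PBRM1shRNA and 1807 ± 53.9 TPM (SD, n = 3) in MDA-MB-436 with vehicle, while the estrogen and progesterone receptor genes ESR1 and PGR were near 0. ERBB2, the gene of the HER2 receptor, was at 5.94 ± 0.315 and 19.0 ± 1.14 TPM in the same groups. Among epithelial genes, KRT8 was at 0.782 ± 0.0811 TPM in these BT-549 controls but at 466 ± 9.90 TPM in MDA-MB-436 with vehicle. EPCAM was at 0.0217 ± 0.0375 and 4.75 ± 1.10 TPM, and CDH1 at 0.688 ± 0.105 and 0.216 ± 0.160 TPM (SD, n = 3). Of 10 markers of blood and endothelial cells, 0 passed the filter on low levels in BT-549 and 1 (CD14) did in MDA-MB-436. Libraries of 1 group correlated at 0.99 or above. The share of TPM taken by short noncoding RNAs was 12.0% to 15.2% in MDA-MB-436, 75.5% to 79.2% in the PBRM1 experiment and 84.8% to 88.5% in the IRF1 experiment, and TPM of all other genes fall as that share rises. Because TPM holds no record of depth, the depth of a library is unknown and no counting interval was formed. The authors' mean normalized counts for the 33 genes ranged from 747 to 14425 in the PBRM1 experiment, from 2025 to 47623 in the IRF1 experiment and from 213 to 6506 in MDA-MB-436.

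The 5 members with the highest level were the same in the unsilenced cells of all 3 tables: CKS2, which binds CDK1, CCNB1, which encodes cyclin B1, UBE2C and CDC20, which serve the APC/C, and TPX2, an activator of Aurora A on spindle microtubules. In the BT-549 controls for PBRM1shRNA CKS2 was at 159 ± 16.1 TPM, TPX2 at 74.3 ± 4.84 TPM and CCNB1 at 61.2 ± 3.91 TPM (SD, n = 3). CENPE, a kinesin of the kinetochore, and KIF23, a kinesin of the central spindle, were among the 5 lowest in every table, at 6.39 ± 0.662 and 8.97 ± 0.782 TPM in the same controls. Across the 33 genes the unsilenced levels, rescaled without short noncoding RNAs, correlated at a Spearman rho of 0.88 between both BT-549 control groups and of 0.71 and 0.78 between each of these and MDA-MB-436. These are correlations across genes of separately normalized tables and are given as a description.

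PBRM1 silencing was accompanied by higher transcripts of all 33 mitotic genes. The comparison asks which genes change when this remodeler subunit is reduced in BT-549 cells, and here "higher", "rose", "lower" and "fell" mean a limma adjusted p under 0.05 on log2(TPM + 1). Of the 33 members 33 were higher and 0 lower, compared with 24.6% higher and 34.8% lower of the 10639 genes tested, and at an unadjusted p under 0.05 the counts were also 33 and 0. The log2 folds ranged from 0.28 to 1.01 with a median of 0.64, beside a median of -0.05 over all genes tested, and as ratios of mean TPM the increases ran from 1.21 to 2.07. The 3 silenced libraries lay above the 3 controls in 33 of 33 members, compared with 26.5% of all genes tested. A larger share of cells in G2 or mitosis and more of these transcripts per cell cannot be told apart in bulk RNA. Only 2 members, AURKA and CCNA2, also passed an absolute log2 fold of 1, compared with 4.88% of all genes, and DLGAP5 lay just below it. No member (0 of 33) did so when control b or silenced library 1 was left out, and 1 did without silenced library 3.

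**Figure D1:**
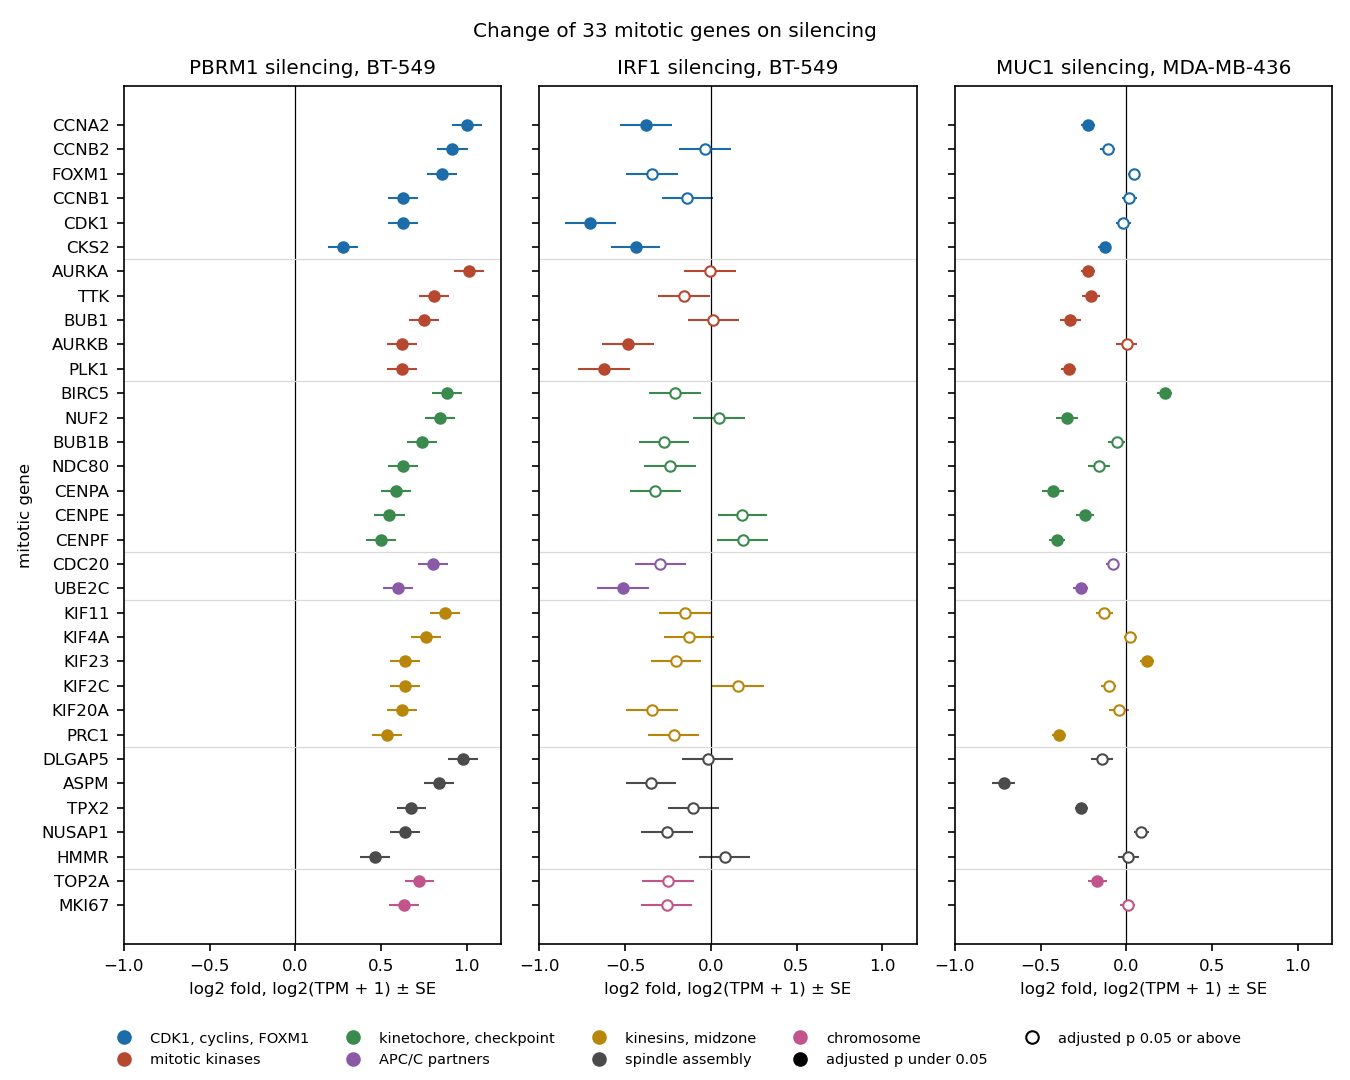
Log2 fold (silenced over control, on log2(TPM + 1), x axis) with its standard error for each of the 33 mitotic genes (y axis, grouped and coloured by role) in the 3 experiments, 3 libraries against 3. Filled points have a limma adjusted p under 0.05, and in the PBRM1 panel all 33 are filled and to the right of 0, in the IRF1 panel 6 filled points are to the left, and in the MUC1 panel 15 filled points are to the left and 2 to the right.

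Among CDK1, its partners and the activator FOXM1, 6 of 6 rose, with a median log2 fold of 0.74. CCNA2, the gene of cyclin A2, which acts from S phase into early mitosis, was at 14.4, 12.6 and 14.6 TPM in controls a, b and c and at 28.9, 27.8 and 29.4 TPM in the silenced libraries 1, 2 and 3. Every silenced library lay well above every control, and the ratio of mean TPM was 2.07, with a limma adjusted p of 5.78e-29. CCNB2, the gene of cyclin B2, stood at 12.9, 11.4 and 13.2 TPM in control and 25.1, 23.4 and 24.7 TPM in silenced libraries. Here too the groups did not overlap, with a log2 fold of 0.92 ± 0.088 (SE). FOXM1, the transcription factor that activates late cell cycle genes, went from 21.8 ± 1.14 to 40.2 ± 1.92 TPM (SD, n = 3; log2 fold 0.85). CCNB1 had a log2 fold of 0.63 and CDK1, the kinase itself, of 0.62, its level going from 13.1 ± 0.953 to 20.7 ± 1.63 TPM (SD, n = 3). CKS2 moved least of all members. It was at 168, 141 and 169.7 TPM in the controls and 201, 173 and 206 TPM in the silenced libraries, with the lowest silenced value just above the highest control, and its log2 fold of 0.28 ± 0.085 (SE) had an adjusted p of 0.00254.

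All 5 mitotic kinases rose, with a median log2 fold of 0.75. AURKA, which encodes the Aurora kinase of centrosomes and spindle poles, had the largest fold of the 33. Its TPM were 27.7, 25.2 and 29.2 in controls a, b and c and 59.8, 52.4 and 56.8 in silenced libraries 1, 2 and 3. No silenced library came near the controls, and the log2 fold was 1.01 ± 0.087 (SE) (limma adjusted p = 3.57e-30). TTK, also called MPS1, and BUB1, both kinases of the spindle assembly checkpoint, had log2 folds of 0.81 and 0.75. AURKB, the Aurora kinase of the chromosomal passenger complex, and PLK1, the Polo kinase needed for mitotic entry and centrosome maturation, both had 0.62.

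At the kinetochore, the protein structure through which chromosomes hold spindle microtubules, 7 of 7 members rose with a median of 0.63. BIRC5, which encodes survivin of the passenger complex, went from 13.5 ± 0.928 to 25.8 ± 1.89 TPM, and NUF2, part of the NDC80 complex that grips microtubules, from 16.3 ± 1.13 to 30.0 ± 1.91 TPM (SD, n = 3). Their log2 folds were 0.88 and 0.84, followed by 0.74 for the checkpoint gene BUB1B and 0.63 for NDC80. CENPA, the histone H3 variant that marks centromeres, and the large kinetochore proteins CENPE and CENPF had the smaller folds of 0.59, 0.55 and 0.50. Both APC/C partners rose, CDC20, its mitotic activator, by 0.80 and UBE2C, its ubiquitin-conjugating enzyme, by 0.60 on the log2 scale.

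The kinesins and the midzone bundler PRC1 rose in 6 of 6 cases with a median of 0.64. KIF11, the motor that pushes spindle poles apart, had 0.87, the chromokinesin KIF4A 0.76, and KIF23, KIF2C and KIF20A between 0.62 and 0.64. PRC1, which crosslinks microtubules of the central spindle, had 0.53. Of the spindle assembly genes 5 of 5 rose, led by DLGAP5, a microtubule-binding partner of the Aurora A kinase. DLGAP5 was at 15.4, 14.1 and 17.0 TPM in the controls and 32.6, 29.1 and 32.6 TPM in the silenced libraries, clear of each other, with a log2 fold of 0.98 ± 0.087 (SE). ASPM, a protein of spindle poles, had 0.84, TPX2 0.68, the microtubule-associated NUSAP1 0.64 and HMMR 0.46. TOP2A, which untangles sister DNA, went from 36.4 ± 3.62 to 60.6 ± 3.40 TPM and MKI67, which encodes the Ki-67 antigen that coats mitotic chromosomes, from 16.6 ± 1.77 to 26.3 ± 1.39 TPM (SD, n = 3).

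The size of the p-values in BT-549 follows from the fit, in which the prior degrees of freedom were infinite and the standard error depended on the level and not on the gene's own spread. With each gene's own spread, an alternative chosen after seeing the data, 32 of 33 stayed higher with adjusted p between 0.00219 and 0.0225, and CKS2 did not pass (adjusted p = 0.127). With short noncoding RNAs removed and TPM rescaled, 33 members were higher with a median log2 fold of 0.60, and 0 passed an absolute log2 fold of 1, since AURKA and CCNA2 were then at 0.95 and 0.96. On that scale the median of all genes was -0.17, a shift of 0.12 from the deposited scale, and 22.1% of genes were higher and 50.7% lower. With quantile normalization 42.8% of genes were higher and 32.2% lower, and CKS2 was the member that did not pass. CKS2 also did not pass without silenced library 3, with 32 members higher. On the deposited scale control b and silenced library 2 held the lowest value of their group in 33 of 33 members, and they also had the largest share of short noncoding RNAs in their group, 79.2% and 77.2%.

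With IRF1 silencing in the same line, none of the mitotic genes rose and the largest decreases were those of CDK1 and PLK1. This comparison asks which genes depend on the interferon-responsive factor. Of the 33 mitotic genes 0 were higher and 6 lower, and 27 did not pass the test, compared with 5.76% higher and 18.5% lower of the 9135 genes tested, so the share of members that fell was near that of all genes. At an unadjusted p under 0.05 the counts were 0 higher and 11 lower. Folds ran from -0.70 to 0.19 with a median of -0.22, beside -0.06 over all genes tested. The silenced libraries lay below the controls in 8 of 33 members, compared with 25.0% of all genes. An absolute log2 fold above 1 with an adjusted p under 0.05 was reached by 0 members and by 1.84% of all genes.

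CDK1 had the largest decrease, from 16.7, 13.3 and 11.4 TPM in controls 1, 2 and 3 to 7.53, 9.19 and 7.42 TPM in IRF1shRNA libraries 1, 2 and 3. The highest silenced library lay below the lowest control, and the log2 fold was -0.70 ± 0.15 (SE) (limma adjusted p = 3.25e-05). PLK1 was at 29.6, 26.0 and 24.3 TPM in control and 15.4, 18.7 and 16.7 TPM in silenced libraries, again without overlap, with a log2 fold of -0.62 ± 0.15 (SE) (adjusted p = 0.000410). UBE2C gave 81.3, 66.7 and 63.8 TPM against 47.1, 53.2 and 46.6 TPM and AURKB gave 27.7, 23.2 and 21.9 TPM against 15.7, 18.8 and 16.6 TPM. Both were lower in every silenced library, with log2 folds of -0.51 (adjusted p = 0.00435) and -0.48 (adjusted p = 0.00855). CKS2 (log2 fold -0.44, adjusted p = 0.0133) and CCNA2 completed the 6. CCNA2 was at 16.3, 13.2 and 11.7 TPM in controls and 9.30, 11.7 and 9.92 TPM in silenced libraries, where silenced library 2 came within 0.1 TPM of control 3. Its log2 fold of -0.38 had an adjusted p of 0.0471.

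The 6 members with positive folds did not pass. CENPF was at 14.3, 11.6 and 10.2 TPM in controls and 11.9, 16.6 and 13.1 TPM in silenced libraries (log2 fold 0.19 ± 0.15 (SE), adjusted p = 0.415). CENPE was at 5.99, 4.54 and 3.78 TPM against 4.88, 6.52 and 5.13 TPM, and KIF2C, a kinesin that takes microtubules apart at centromeres, at 20.4, 17.0 and 16.1 TPM against 18.1, 23.4 and 18.7 TPM. In each of these the groups overlapped, and control 1 and silenced library 2 were the highest of their groups. HMMR, which encodes a microtubule-binding protein of the spindle, was at 13.3, 10.2 and 8.87 TPM against 10.2, 13.0 and 10.9 TPM. AURKA, which led in the PBRM1 experiment, was at 41.8, 35.0 and 31.5 TPM in controls and 32.7, 41.6 and 33.3 TPM in silenced libraries, with overlapping groups and a log2 fold of -0.01 ± 0.15 (SE). FOXM1 and CDC20 had groups that did not overlap, with log2 folds of -0.34 (adjusted p = 0.0860) and -0.30 (adjusted p = 0.146). The log2 folds of the proliferation markers MKI67 and TOP2A were -0.26 and -0.25, with adjusted p of 0.223 and 0.239. These values are on the deposited scale, and FOXM1, CDC20 and MKI67 were lower once short noncoding RNAs were removed.

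**Figure D2:**
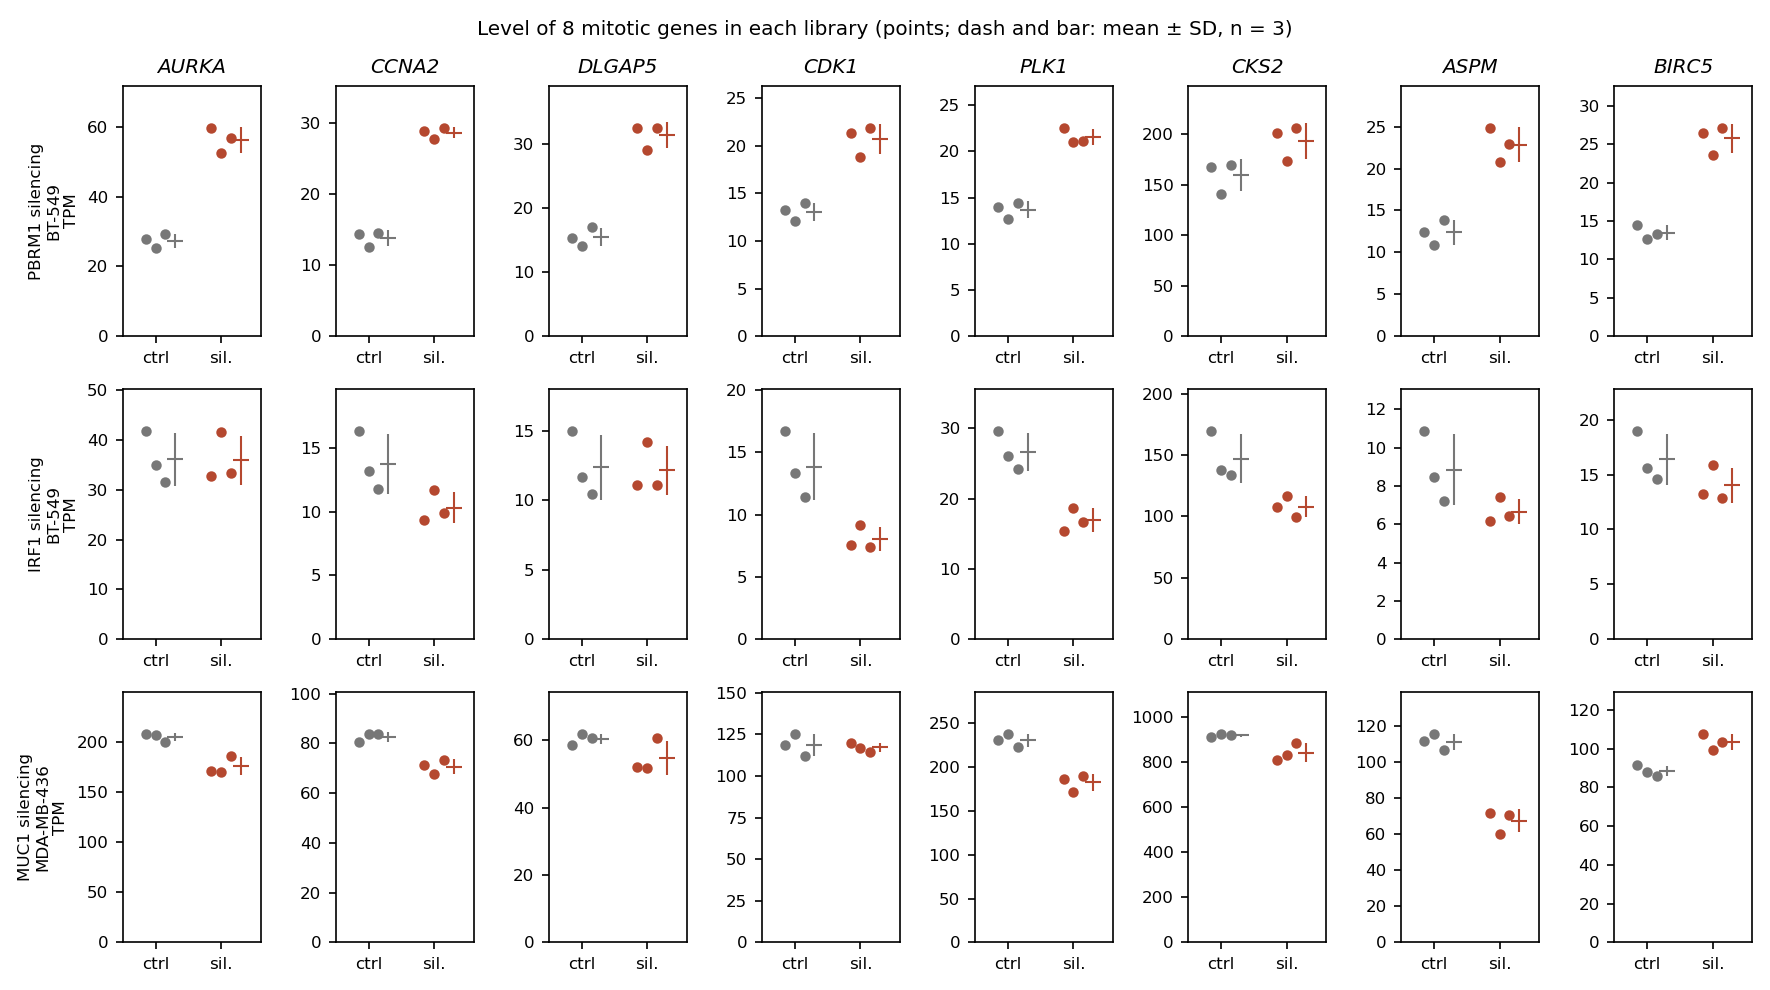
TPM (y axis, from 0) of 8 mitotic genes (columns) in each control (grey) and silenced (red) library of the 3 experiments (rows), with the mean and SD of 3 libraries beside the points. In the PBRM1 row the silenced points lie above the controls for all 8 genes, in the IRF1 row they lie below for CDK1, PLK1, CKS2 and CCNA2 and overlap for the other 4, and in the MUC1 row ASPM shows the largest gap and BIRC5 the opposite direction.

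In the IRF1 table the spread within groups was shared by the members. Control 1 held the highest value of its group in 33 of 33 members and silenced library 2 in 33 of 33, and these libraries had the smallest share of short noncoding RNAs in their groups, at 84.8% and 86.3%. The other shares were 87.3% and 87.9% in controls 2 and 3 and 88.5% and 88.4% in silenced libraries 1 and 3. With short noncoding RNAs removed and TPM rescaled, 7 members were higher and 15 lower, compared with 35.3% and 29.4% of 12726 genes tested, and the median log2 fold was -0.11. The 7 were CENPE, CENPF, KIF2C, HMMR, NUF2, BUB1 and AURKA, with CENPE at 0.33 (adjusted p = 0.00202), CENPF at 0.32, KIF2C at 0.28 and AURKA at 0.11. CDK1, PLK1, UBE2C and AURKB remained lower on that scale, at -0.64, -0.53, -0.40 and -0.39, as did CKS2 and CCNA2. Lower on that scale only were FOXM1 (-0.24, adjusted p = 0.000561), CDC20, MKI67, BUB1B, KIF20A, NUSAP1, BIRC5, CENPA and ASPM. With median-ratio scaling 5 members were higher and 19 lower, compared with 34.1% and 34.9% of all genes. The counts on the deposited scale also rested on single libraries: CDK1 and PLK1 alone were lower without silenced library 1 or without silenced library 3, 3 members were lower without control 2 and 10 without silenced library 2, and CENPE and CENPF were higher without control 1. With each gene's own spread 0 of the 33 passed in either direction, 5 were lower at an unadjusted p under 0.05, and the smallest adjusted p was 0.0608 for PLK1.

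**Figure D3:**
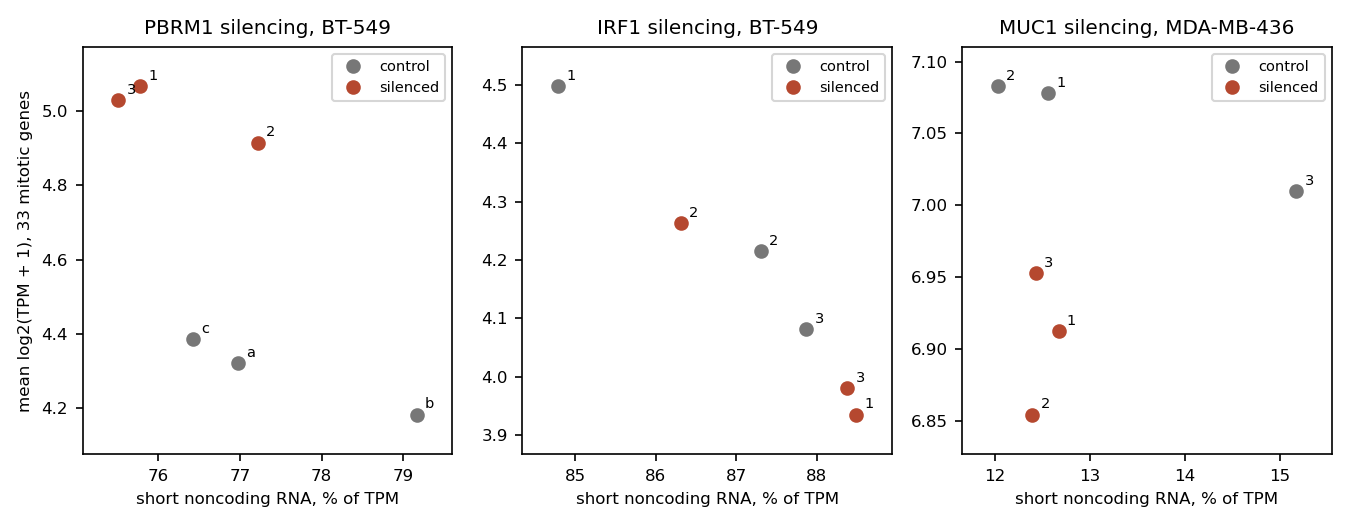
Mean log2(TPM + 1) of the 33 mitotic genes (y axis) against the share of TPM taken by short noncoding RNAs in percent (x axis) in each library of the 3 experiments, control in grey and silenced in red, with the replicate number (letter for the PBRM1 controls) beside each point. In the IRF1 panel control 1, with 84.8%, is highest and silenced library 1, with 88.5%, is lowest, while in the PBRM1 panel all silenced libraries lie above all controls.

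In MDA-MB-436 cells, more mitotic genes fell than rose with MUC1 silencing, led by ASPM, CENPA and CENPF. The comparison asks what follows from induction of the MUC1 hairpin by DOX. Of the 33 members 2 were higher and 15 lower, and 16 did not pass, compared with 27.0% higher and 23.4% lower of the 13229 genes tested. At an unadjusted p under 0.05 the counts were 2 higher and 19 lower. The log2 folds ranged from -0.72 to 0.22 with a median of -0.13, beside 0.02 over all genes. DOX libraries lay above vehicle libraries in 3 members, compared with 31.5% of all genes, and below them in 17, compared with 27.7%. No member (0 of 33) passed an absolute log2 fold of 1, which 2.68% of all genes did. In the same libraries the epithelial genes EPCAM and CDH1 went from 4.75 ± 1.10 to 21.3 ± 1.30 TPM and from 0.216 ± 0.160 to 3.08 ± 0.255 TPM (SD, n = 3), and their part in the changes of the mitotic genes was not tested.

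ASPM had the largest change, from 112, 116 and 107 TPM in vehicle libraries 1, 2 and 3 to 72.1, 60.0 and 70.8 TPM in DOX libraries 1, 2 and 3. The groups were far apart, and the log2 fold was -0.72 ± 0.068 (SE), with a limma adjusted p of 4.27e-05. CENPA was at 36.4, 40.2 and 41.7 TPM with vehicle and 31.2, 28.3 and 27.8 TPM with DOX, and CENPF at 72.9, 74.1 and 73.0 TPM and 56.3, 52.4 and 57.0 TPM. Both centromere genes were lower in every DOX library, by 0.43 (adjusted p = 0.000681) and 0.40 (adjusted p = 8.88e-05) on the log2 scale. PRC1, of the central spindle, was at 165, 159 and 154 TPM with vehicle and 125, 119 and 119 TPM with DOX, without overlap, and had a log2 fold of -0.39 ± 0.040 (SE) (adjusted p = 5.98e-05). At the kinetochore NUF2 and CENPE also fell, with log2 folds of -0.35 and -0.24.

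Of the 5 mitotic kinases 4 fell. PLK1 went from 231 ± 7.34 to 183 ± 9.45 TPM and BUB1 from 180.1 ± 14.2 to 143 ± 8.30 TPM (SD, n = 3), with log2 folds of -0.34 and -0.33, and TTK had -0.21. AURKA was at 208, 206 and 199.9 TPM with vehicle and 171, 169 and 186 TPM with DOX. Its groups did not overlap, and the log2 fold was -0.22 ± 0.043 (SE) (adjusted p = 0.00232). AURKB, the fifth, was at 142 ± 12.6 and 142 ± 6.07 TPM. CCNA2 was at 80.5, 83.8 and 83.8 TPM with vehicle and 71.1, 67.6 and 73.3 TPM with DOX, all DOX values below all vehicle values, with a log2 fold of -0.22 ± 0.043 (SE) (adjusted p = 0.00239). UBE2C, TPX2, TOP2A and CKS2 completed the 15, with log2 folds of -0.27, -0.26, -0.17 and -0.13. CKS2 and TOP2A no longer passed when vehicle 1, vehicle 2, DOX 1 or DOX 2 was left out, with 13 members then lower.

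BIRC5 and KIF23 rose. BIRC5 was at 91.3, 88.1 and 85.8 TPM with vehicle and 108, 99.3 and 103 TPM with DOX, each DOX library above each vehicle library, and had a log2 fold of 0.22 ± 0.043 (SE) (adjusted p = 0.00242). KIF23 was at 47.9, 48.1 and 45.5 TPM and 50.5, 52.6 and 50.9 TPM, also without overlap, with a log2 fold of 0.12 and an adjusted p of 0.0418. KIF23 did not pass once any 1 of the 6 libraries was left out, and BIRC5 alone was then higher. NUSAP1 was at 283, 292 and 265 TPM and 296, 288 and 308 TPM, with overlapping groups and an adjusted p of 0.124. FOXM1 was at 252, 247 and 242 TPM with vehicle and 256, 254 and 254 TPM with DOX, a narrow gap with a log2 fold of 0.04 and an adjusted p of 0.278. Neither CDK1 (log2 fold -0.02, adjusted p = 0.789) nor MKI67 (log2 fold 0.01, adjusted p = 0.899) passed, and MKI67 changed sign when short noncoding RNAs were removed.

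Read side by side on the deposited scale, 4 members were higher with PBRM1 silencing and lower in both other experiments, namely CCNA2, CKS2, PLK1 and UBE2C. CDK1 and AURKB were higher with PBRM1 silencing and lower with IRF1 silencing only, while 11 members were higher with PBRM1 silencing and lower with MUC1 silencing only. BIRC5 and KIF23 were higher in the PBRM1 and MUC1 experiments, and the remaining 14 passed in the PBRM1 experiment alone. These groupings depend on the scale. With short noncoding RNAs removed, 6 members were higher with PBRM1 silencing and lower in both other experiments (CCNA2, CKS2, PLK1, UBE2C, CENPA and ASPM), 8 were lower with IRF1 silencing and did not pass with MUC1 silencing, and 4 (CCNB1, NDC80, KIF4A and DLGAP5) passed in the PBRM1 experiment alone. On that scale AURKA, BUB1, CENPE, CENPF and NUF2 were higher with PBRM1 and IRF1 silencing and lower with MUC1 silencing, and BIRC5 was lower with IRF1 silencing. The experiments have no library in common and were fitted separately, and differences between them were not tested. Across the 33 genes the folds of the PBRM1 experiment correlated with those of the IRF1 experiment at a Pearson r of 0.11 (Spearman rho 0.15) and with those of the MUC1 experiment at a Pearson r of 4.49e-06 (Spearman rho 0.11), which describes genes and not replicates.

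A longer list of 88 other G2 and mitosis genes is set beside the members here. Shares of all genes tested, higher and lower, were 24.6% and 34.8% with PBRM1 silencing and 5.76% and 18.5% with IRF1 silencing. With MUC1 silencing they were 27.0% and 23.4%, and with IRF1 silencing without short noncoding RNAs 35.3% and 29.4%. With PBRM1 silencing 79 of the 88 were higher and 2 lower (median log2 fold 0.55), led by CENPI, a centromere protein, at 1.07 and CCNF, the gene of cyclin F, at 1.06. The 2 that fell were CDC25B, a phosphatase that activates CDK1, at -0.30 and MIS12, of the outer kinetochore, at -0.23. With IRF1 silencing 0 were higher and 15 lower, led by CENPW at -1.37 and SPC24, of the NDC80 complex, at -0.87, and without short noncoding RNAs 13 were higher and 37 lower. With MUC1 silencing 7 were higher and 45 lower, with ESPL1, the gene of separase, which cuts cohesin at anaphase, at -0.91, PSRC1 at -0.86, DEPDC1B at 0.67 and the condensin II subunit gene NCAPD3 at 0.37. Of 15 core subunits of the APC/C, 5 were higher and 1 lower with PBRM1 silencing, 1 and 1 with IRF1 silencing and 6 and 3 with MUC1 silencing. These are counts of few genes, to be read beside the shares of all genes above. ANAPC13 fell with IRF1 silencing and with MUC1 silencing, at -1.02 and -1.08.

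DNA replication genes, which act in S phase, rose in part with PBRM1 silencing and with MUC1 silencing. Of 49 listed, 33 were higher and 3 lower with PBRM1 silencing (median log2 fold 0.29), compared with 24.6% and 34.8% of all genes tested. The ribonucleotide reductase gene RRM1 was at 0.84, POLA2 at -0.30 and the helicase subunit gene MCM6 at -0.29. With IRF1 silencing 1 was higher (TIPIN, 0.44) and 14 lower, compared with 5.76% and 18.5% of all genes. Those that fell were led by UHRF1 at -0.82 and RRM2 at -0.66. With MUC1 silencing 19 were higher and 5 lower (median 0.08), compared with 27.0% and 23.4% of all genes. DSCC1 was at 0.59 and GINS1 at 0.51 and, among those that fell, POLA1 at -0.43 and CLSPN at -0.34. The mean log2(TPM + 1) of the 33 mitotic genes minus that of the 49 replication genes, a difference within each library, was 0.95, 0.94 and 0.97 in controls a, b and c and 1.37, 1.37 and 1.38 in PBRM1shRNA libraries 1, 2 and 3. All silenced libraries were thus above all controls, by 0.42 on average. In the IRF1 experiment the difference was 1.16, 1.13 and 1.10 in control and 1.12, 1.18 and 1.14 in silenced libraries, which overlapped. With short noncoding RNAs removed it was 1.24, 1.23 and 1.21 in control and 1.25, 1.29 and 1.27 in silenced libraries, without overlap. In MDA-MB-436 the difference on the deposited scale was 1.24, 1.22 and 1.19 with vehicle and 1.01, 0.95 and 1.05 with DOX. All DOX libraries were lower, with a mean change of -0.21. No test was made of these scores.

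**Figure D4:**
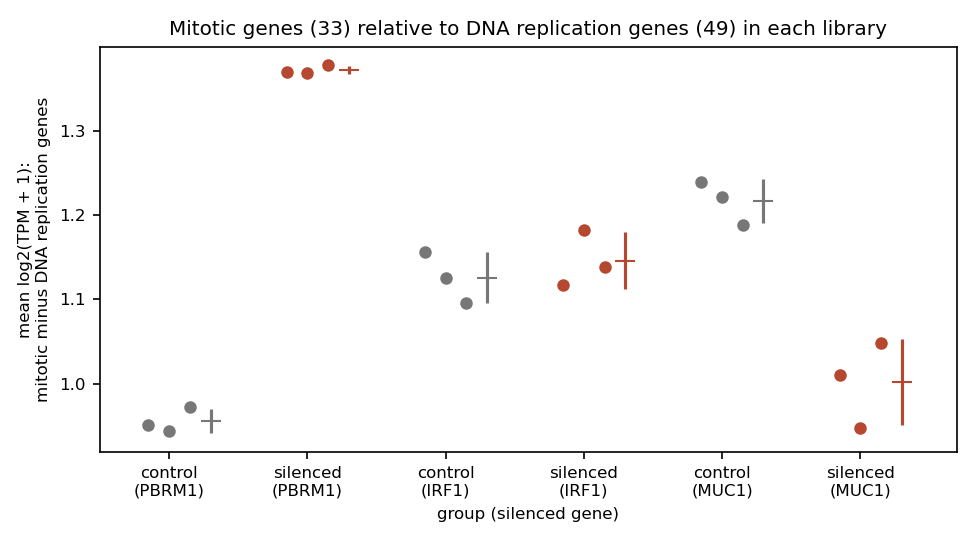
Mean log2(TPM + 1) of 33 mitotic genes minus that of 49 DNA replication genes in each library (y axis, points), with the mean and SD of 3 libraries, for the control and silenced groups of the 3 experiments (x axis, named by the silenced gene). PBRM1shRNA libraries lie near 1.37 and their controls near 0.96, IRF1 groups overlap on the deposited scale shown here, and DOX libraries lie below vehicle libraries.

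Regulators of the cell cycle were read from a list of 36 genes of cyclins, CDK inhibitors, and E2F, DREAM and MYB factors. With PBRM1 silencing 8 of 34 tested were higher and 13 lower, near the shares of all genes tested (24.6% and 34.8%). MYBL2, the partner of MuvB at mitotic promoters, went from 24.5 ± 1.33 to 60.2 ± 2.40 TPM (SD, n = 3; log2 fold 1.26) and CDKN2C, a CDK4 and CDK6 inhibitor, had 1.05. CDKN1A, the gene of p21, an inhibitor of CDK complexes induced by p53, fell from 9.29 ± 0.478 to 3.09 ± 0.179 TPM (SD, n = 3; log2 fold -1.33), and CCND3 had -0.67. With IRF1 silencing 4 of 34 were higher and 11 lower, compared with 5.76% and 18.5% of all genes. The cyclin D1 gene CCND1 had a log2 fold of -1.80, MYBL2 of -1.06, CDKN2D of 0.55 and the NF-Y subunit gene NFYA of 0.48. With MUC1 silencing 12 of 36 were higher and 8 lower, compared with 27.0% and 23.4% of all genes. RBL1, the gene of the DREAM pocket protein p107, went from 17.5 ± 1.66 to 6.90 ± 0.477 TPM (log2 fold -1.23) and CDKN1A from 24.2 ± 0.558 to 39.8 ± 2.62 TPM (log2 fold 0.69, both SD, n = 3). CCND2 was at 0.87 and CDKN2D at -0.45. The part of these regulators in the changes of the mitotic genes was not tested.

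In the PBRM1 experiment the median log2 fold was 0.68 in the 16 members with TTTGAA or TTCAAA before the start and 0.63 in the 11 without, a description with no test. For CCAAT or ATTGG the medians with and without were 0.64 and 0.64, and for both elements together 0.64 and 0.63. Exons of 10 of the 33 members overlap those of a gene on the opposite strand in GENCODE, among them KIF20A with CDC23 and BRD8, and FOXM1 with ITFG2. The library kit was stranded, but whether strand was used in counting is not given in the sources used here, so reads of such pairs may not have been told apart.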

How the data were processed

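Total RNA of 18 cultures was sequenced from a stranded mRNA kit. The authors deposited TPM per gene and library, with mean normalized counts per experiment (a signal on the DESeq2 scale) and DESeq2 fold changes, test statistics and p-values, which were not used. STAR, DESeq2 and GRCh38 are named in the submitters' processing notes; the annotation, the TPM program, versions and the strand setting were not given in the sources used here. Each experiment was fitted separately with limma 3.58.1 (R 4.3.3; lmFit and eBayes with trend) on log2(TPM + 1), for genes at 1 TPM or more in at least 3 of 6 libraries, with Benjamini-Hochberg adjustment over all genes tested, and folds are on that scale, which understates changes of low genes. "Called" adds an absolute log2 fold above 1. All 33 members were tested in each experiment. Columns of the controls for PBRM1shRNA could be matched to their group and not to a sample, so these libraries are named a, b and c, and the number ending each column name served for the replicate block. Same-numbered libraries deviated together in the PBRM1 experiment (r = 0.45, 0.31 and 0.29), and not in the IRF1 (-0.21, 0.09 and 0.23) or MUC1 (0.05, -0.04 and 0.01) experiments. With short noncoding RNAs removed the PBRM1 values were 0.28, 0.16 and 0.16. On the deposited scale control 1 and silenced library 2 of the IRF1 experiment, which differ in number, had 0.29.

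Alternatives were no filter, a mean of at least 5 TPM, a pseudocount of 0.1, removal of short noncoding RNAs (500 bases or less) with rescaling, median-ratio and quantile scaling, no trend, array weights, a replicate block and leaving out each library. The fit was tested on simulated data with noise drawn separately for each gene. That test does not cover spread shared by the genes of a library. The members and lists were chosen with earlier results of these data known. Values per library are given for members past an absolute log2 fold of 1, the 4 largest positive and negative folds of each experiment and CKS2, chosen after its values were seen, and, of each other list, the 2 largest folds each way that passed are named, except 1 gene that is not reported here. Promoters (RefSeq, GRCh38.p14) are shown for the members given by that rule on folds that hold TTTGAA or TTCAAA in the 250 bases before the start, the first 8 in order of the PBRM1 fold, less CDK1, which has 2 listed starts. AURKA, FOXM1, BIRC5, TTK, UBE2C and TPX2 had no promoter entry. TPM keeps no depth, so precision rests on the spread of 3 libraries.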

Additional observations from a re-analysis of the deposited data

How the results depend on the processing

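Of the mitotic genes, 32 or 33 were higher and 0 lower with PBRM1 silencing under every alternative run, and the median log2 fold stayed between 0.59 and 0.71. The count past an absolute log2 fold of 1 was 0 with short noncoding RNAs removed, with or without the replicate block, 0 with array weights and 1 with quantile normalization, and ranged from 0 to 3 with single libraries left out. With IRF1 silencing the counts higher and lower were 7 and 15 without short noncoding RNAs, 7 and 16 with the replicate block added to that, 5 and 19 with median-ratio scaling, 6 and 16 with quantile normalization and 4 and 25 with array weights. The lower count was 10 with no trend, 2 with the replicate block and 0 with gene-wise variance, and with single libraries left out the counts ranged from 0 to 2 higher and from 2 to 10 lower. With MUC1 silencing 1 member was higher with no trend, with the replicate block (also without short noncoding RNAs) and without any 1 library (1 to 1), and 12 to 20 were lower. Under quantile normalization the 2 higher members were BIRC5 and NUSAP1, and KIF23 and CKS2 did not pass. Gene-wise variance and the joint removal of short noncoding RNAs with the block were chosen after seeing the data. The cause of these changes was not tested.

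With IRF1 silencing the AURKA log2 fold turned positive without short noncoding RNAs (0.11, and 0.11 with the replicate block), with median-ratio scaling (0.071) and with quantile normalization (0.13), and ranged from -0.12 to 0.10 with single libraries left out. BUB1 turned negative with array weights (-0.027) and ranged from -0.092 to 0.13, NUF2 from -0.072 to 0.20 and HMMR from -0.036 to 0.23 with single libraries left out. With MUC1 silencing CDK1 ranged from -0.056 to 0.023 and MKI67 from -0.016 to 0.043 with single libraries left out, and MKI67 was at -0.0046 without short noncoding RNAs (-0.0046 with the block), -0.0090 with median-ratio scaling and -0.047 with quantile normalization. Among the other lists, the IRF1 counts ran from 4 to 60 lower of the other G2 and mitosis genes and from 2 to 37 lower of the replication genes, and the PBRM1 regulator counts ran from 5 to 15 higher and from 6 to 19 lower. With the replicate block all 33 members stayed higher in the PBRM1 experiment. There same-numbered libraries deviated together, but the control numbers only end the column names, so a pairing of cultures is not established. In the IRF1 and MUC1 experiments the libraries share only a number. Each group was 3 cultures of 1 line, with 1 hairpin per target, and TPM holds no depth from which a detection limit could be set.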

Other observations

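Genes of epithelial and mesenchymal state also changed in the 3 experiments. With MUC1 silencing the keratin gene KRT8 went from 466 ± 9.90 to 899.7 ± 19.5 TPM (log2 fold 0.95) and EPCAM, an epithelial adhesion gene, had a log2 fold of 1.98, while VIM went from 1807 ± 53.9 to 1025 ± 38.7 TPM (log2 fold -0.82) and ZEB1, a repressor of epithelial genes, from 10.2 ± 0.927 to 5.16 ± 0.173 TPM (log2 fold -0.86; SD, n = 3). FN1, the gene of fibronectin, rose in the same cells (log2 fold 0.41), and CDH2, the gene of N-cadherin, fell (log2 fold -0.24). With PBRM1 silencing KRT8 went from 0.782 ± 0.0811 to 6.29 ± 0.199 TPM (log2 fold 2.03) and FN1 from 37.0 ± 3.43 to 13.9 ± 1.45 TPM (log2 fold -1.35; SD, n = 3), ZEB1 fell (log2 fold -0.59), and the mesenchymal genes CDH2 and VIM rose (log2 folds 0.45 and 0.25). CDH1, the gene of E-cadherin, was below the filter there and, with short noncoding RNAs removed, had a log2 fold of -1.16. With IRF1 silencing VIM fell (log2 fold -0.59) and KRT8, at 0.187 ± 0.0127 TPM in controls (SD, n = 3), did not pass the filter on low levels. With short noncoding RNAs removed KRT8 was lower there (log2 fold -0.77), opposite to its rise in the other experiments, and FN1 was lower (log2 fold -0.28). CD14, a monocyte gene, went from 4.34 ± 0.377 to 9.03 ± 1.91 TPM in MDA-MB-436, while PTPRC and CD3E, which mark blood cells, stayed below the filter in every table.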
